A study of Homo sapiens with 16 samples.

Results

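The regions described here are the 103 H3K4me3 peaks of control LNCaP cells that overlapped an H3K27me3 peak but no EZH2 peak. They were chosen from the 3 peak lists of sgC cells in DMSO. An H3K4me3 peak on chromosomes 1 to 22 or X was taken when at least 1 bp of it lay under an H3K27me3 peak and none of it under an EZH2 peak. They made up 0.592% of the 17396 H3K4me3 peaks of that library and 16.0% of its 643 bivalent peaks, the name used here for H3K4me3 peaks that overlap H3K27me3. The other 540 bivalent peaks also overlapped EZH2. A further 14127 H3K4me3 peaks overlapped neither H3K27me3 nor EZH2 and are called unmarked below.

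LNCaP is an established androgen-responsive prostate carcinoma line. Its cells carried a guide targeting PRKCI, which encodes an atypical protein kinase C, or a control guide. The groups are called sgPRKCI and sgC, and both received 10 µM enzalutamide, an antiandrogen drug, or DMSO for 72 h. The 4 conditions were therefore sgPRKCI with enzalutamide, sgC with enzalutamide, sgPRKCI with DMSO and, as the condition in which the regions were chosen, sgC with DMSO. All 4 share the LNCaP background, and the labels do not say whether a guide line is a clone or a pool. CUT&RUN, in which an antibody directs a nuclease to cut out nearby chromatin, gave 1 library per antibody and condition, so no difference below has a replicate check and none was tested. Brackets hold exact 95% binomial intervals, which cover counting error over peaks only.

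H3K4me3 is deposited at the starts of active and poised genes. H3K27me3 is deposited by Polycomb repressive complex 2, of which EZH2 is a catalytic subunit, and can spread from the sites where the complex binds. Promoters with both marks are known from embryonic stem cells, where many belong to developmental regulators, and they typically lie in CpG islands. H3K27me3 can also lie where the enzyme is not detected. Separate libraries from bulk cells cannot tell a region with both marks on 1 chromosome copy from a mixture of cells or alleles with 1 mark each, and fewer marked cells cannot be told apart from less mark per cell.

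At 38 annotated coding promoters of the 103 peaks, the sequence around the start (250 bases before to 50 after) had a median GC content of 71.5% and a median CpG observed-over-expected ratio of 0.828. The same medians were 71.8% and 0.856 at 294 promoters of bivalent peaks with EZH2, and 62.3% and 0.738 over all 22132 coding promoters of the RefSeq table (GRCh38.p14). The 250 bases before the start are printed, on the strand of the gene and with CpG in capitals, for 3 genes where EZH2 was called in sgC enzalutamide with H3K27me3 kept (RCAN2, IQUB and OSBP2) and 3 where H3K27me3 was called in no other condition (NKX2-8, HPCAL4 and PRR16).
RCAN2, chr6:46491450-46491699, minus strand: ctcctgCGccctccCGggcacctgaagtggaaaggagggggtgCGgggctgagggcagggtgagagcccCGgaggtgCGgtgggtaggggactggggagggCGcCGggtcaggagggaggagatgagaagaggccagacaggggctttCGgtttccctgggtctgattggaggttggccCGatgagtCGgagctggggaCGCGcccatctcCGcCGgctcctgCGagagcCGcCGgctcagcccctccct
IQUB, chr7:123532949-123533198, minus strand: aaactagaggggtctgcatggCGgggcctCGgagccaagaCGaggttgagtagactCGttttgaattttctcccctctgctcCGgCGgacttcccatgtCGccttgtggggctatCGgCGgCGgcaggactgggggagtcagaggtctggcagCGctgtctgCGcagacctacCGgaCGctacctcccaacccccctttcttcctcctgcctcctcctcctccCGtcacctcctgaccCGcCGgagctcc
OSBP2, chr22:30822266-30822515, plus strand: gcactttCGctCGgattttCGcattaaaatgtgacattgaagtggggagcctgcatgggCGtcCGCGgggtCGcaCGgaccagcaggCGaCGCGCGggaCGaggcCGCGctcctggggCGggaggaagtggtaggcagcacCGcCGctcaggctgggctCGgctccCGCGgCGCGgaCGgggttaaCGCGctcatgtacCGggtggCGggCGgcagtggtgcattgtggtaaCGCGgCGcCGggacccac
NKX2-8, chr14:36582615-36582864, minus strand: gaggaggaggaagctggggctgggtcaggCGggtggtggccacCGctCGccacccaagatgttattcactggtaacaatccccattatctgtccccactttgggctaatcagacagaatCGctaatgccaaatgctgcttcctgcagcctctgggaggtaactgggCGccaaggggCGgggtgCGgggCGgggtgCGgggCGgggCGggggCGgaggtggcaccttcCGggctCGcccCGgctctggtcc
HPCAL4, chr1:39691434-39691683, minus strand: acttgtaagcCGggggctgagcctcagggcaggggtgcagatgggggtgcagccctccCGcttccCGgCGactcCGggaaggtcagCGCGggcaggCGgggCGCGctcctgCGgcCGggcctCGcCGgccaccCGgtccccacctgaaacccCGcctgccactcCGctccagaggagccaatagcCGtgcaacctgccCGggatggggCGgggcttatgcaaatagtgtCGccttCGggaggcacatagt
PRR16, chr5:120464050-120464299, plus strand: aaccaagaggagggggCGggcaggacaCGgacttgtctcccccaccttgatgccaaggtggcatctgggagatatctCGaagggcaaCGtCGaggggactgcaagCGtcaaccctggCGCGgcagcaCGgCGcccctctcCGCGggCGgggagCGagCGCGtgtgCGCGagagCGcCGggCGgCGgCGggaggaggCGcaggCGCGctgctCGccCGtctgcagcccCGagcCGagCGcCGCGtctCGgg
These windows held 17 CpG in RCAN2, 17 in IQUB and 33 in OSBP2, and 15 in NKX2-8, 22 in HPCAL4 and 34 in PRR16, so both sets spanned sparse and dense CpG.

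Short motifs were looked for in the 300 bases on both strands, where overlapping matches of different motifs were allowed. The GC box GGGCGG occurred in 78.9% of the 38 promoters, against 81.3% of promoters of bivalent peaks with EZH2, 74.2% of unmarked ones and 56.3% of all. CCGGAAG, the core that ETS factors bind, occurred in 5.26%, against 4.76% with EZH2, 22.4% of unmarked promoters and 12.8% of all. TATAAA occurred in 0 of the 38, which allows a share of up to 7.89%, against 6.12% with EZH2, 4.37% of unmarked promoters and 9.46% of all. CCAAT was found in 31.6% of the 38, against 23.1% with EZH2, 36.4% of unmarked promoters and 34.6% of all. CACGTG was found in 7.89%, against 6.12%, 10.8% and 8.34% of the same sets, and GAGAG in 57.9%, against 67.7%, 60.5% and 62.6%. The 38 promoters were nearer to those with EZH2 than to the unmarked ones for the GC box, the ETS core and CACGTG, and nearer to the unmarked ones for the other 3 motifs. Only 2 promoters stand behind the ETS count. A match describes letters only.

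Libraries differed in depth and in how much was called. Mean fragment coverage, recovered from the deposited values, was between 0.842 and 1.56 in the H3K4me3 libraries, lowest in sgC DMSO, and between 1.13 and 1.68 in the EZH2 libraries, lowest in sgPRKCI DMSO. EZH2 peaks numbered 24517 in sgPRKCI enzalutamide, 15351 in sgC enzalutamide, 6165 in sgPRKCI DMSO and 11433 in sgC DMSO. H3K27me3 peaks covered 249 Mb, 289 Mb and 232 Mb in the same 3 other conditions and 191 Mb in sgC DMSO. Of the markers of luminal prostate cells, 9 of 10 (8 in sgC enzalutamide) had an H3K4me3 peak at a start, including KLK3. Among basal markers 0 of 3 had one in any condition, and among blood and endothelial markers 1 of 13 did, SPI1. Of 6 neuroendocrine markers SYP had one in every condition. The peak lists do not measure PRKCI protein, so the guide could not be checked here.

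In the sgC DMSO lists that chose them, the 103 peaks were small. Their median width was 511 bp, against 677.5 bp for bivalent peaks with EZH2 and 1473 bp for unmarked peaks. Summit height, the number of fragments at the highest point divided by the mean coverage of the library, had a median of 21.4, against 24.9 for bivalent peaks with EZH2 and 68.9 for unmarked peaks. The overlapping H3K27me3 peak had a median width of 1434 bp and a median fold enrichment of 3.32, against 3397 bp and 3.79 at bivalent peaks with EZH2. H3K27me3 covered a median of 3727 bp of the 10 kb on both sides, against 6655.5 bp. All these values were used by the choice and are given as description. Fold enrichments and −log10 q values of peaks are the authors'.

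H3K27me3 covered the H3K4me3 summit at 66 of the 103 peaks and the whole peak at 36, and it covered under 25% of the peak at 19. The nearest EZH2 peak of sgC DMSO lay within 1 kb at 17 peaks, between 1 and 10 kb at 13 and over 10 kb away at 73, with a median gap of 58703 bp. Just inside the rule, a peak on chromosome 11 between genes shared 7 bp with H3K27me3, and the peak at the starts of ILDR2 and MAEL shared 27 bp. Just outside it, a peak at SOBP abutted H3K27me3 with no shared base and a peak at LINC01311 lay 8 bp away. On the EZH2 side, a peak inside TNNT1 lay 27 bp from EZH2 and the peak at TMEM108 33 bp from it. The excluded bivalent peaks with the weakest EZH2, at OLFML2B, PCDHGA4 and ACOXL, had an EZH2 −log10 q of 4.15 each.

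Fewer of these peaks sat at gene starts than H3K4me3 peaks in general. A coding start lay within 1 kb of 47 of the 103 peaks, 45.6% (35.8 to 55.7), against 70.4% of bivalent peaks with EZH2 and 64.4% of all H3K4me3 peaks. For genes with no start in the RefSeq table, either annotated end stood in for it. Another 7 peaks had only the start of a long noncoding RNA, 19 lay inside a coding gene away from its start and 30 lay outside coding genes. Chromosome 1 held 19 of the 103, chromosome 19 held 11 and chromosome 15 held 10. On chromosome 15, 8 peaks fell between positions 20775252 and 21889474, near the centromere. At least 3 annotated pseudogenes lay within 50 kb of 18 of the 103 peaks, 17.5%, against 7.78% of bivalent peaks with EZH2 and 7.86% of all H3K4me3 peaks. In such repeated sequence, how reads were shared between copies is not given in the sources used here. Leaving those 18 out, the shares given below stayed within 3 percentage points of their values.

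Among genes grouped by function, the 103 peaks held few members. Of 156 developmental transcription factors, 54 had H3K4me3 in sgC DMSO, 1 of them at the 103 peaks and 15 at bivalent peaks with EZH2. The 1 gene was NKX2-8, a homeobox factor. The count covers the listed genes only: HOXB6, another homeobox factor described below, also had its start at the 103 peaks and is not in it. Of 53 BMP, TGF-beta and hedgehog pathway genes, 32 had H3K4me3, and BMP7, a secreted ligand, was among those here. Of 88 potassium, sodium and calcium channel genes, 31 had H3K4me3, 1 of them here: KCNJ12, an inward rectifier potassium channel with near-identical copies in the genome, so its reads are uncertain. The other 11 lists had no gene at these peaks. They included 36 androgen response genes, 25 WNT pathway genes, 31 receptor tyrosine kinase and FGF genes, 29 interferon and antigen presentation genes and 78 cytosolic ribosomal proteins with H3K4me3. Over all coding genes, 48 of the 12056 with H3K4me3 were at the 103 peaks and 387 at bivalent peaks with EZH2.

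Most of the 103 regions kept H3K4me3 in the other conditions, fewer kept H3K27me3, and EZH2 calls at them differed widely between libraries. An H3K4me3 peak overlapped 88 of them in sgPRKCI enzalutamide, 85.4% (77.1 to 91.6), 85 in sgC enzalutamide, 82.5% (73.8 to 89.3), and 93 in sgPRKCI DMSO, 90.3% (82.9 to 95.2). Over all H3K4me3 peaks of sgC DMSO the shares were 91.2%, 92.3% and 92.1%. H3K4me3 was called in all 3 other conditions at 77 regions and in none at 2.

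**Figure D1:**
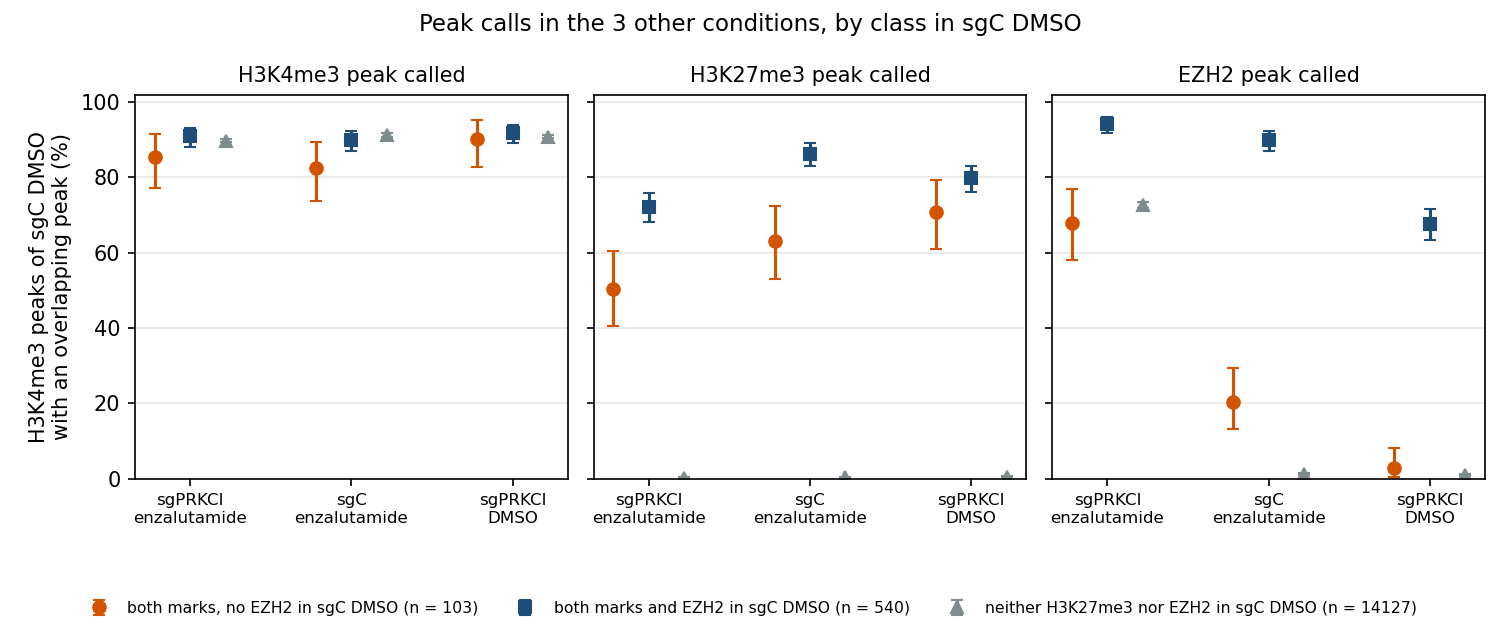
Shares of sgC DMSO H3K4me3 peaks (y axis, %) that overlapped an H3K4me3, H3K27me3 or EZH2 peak in each other condition (x axis), by class in sgC DMSO, with exact 95% binomial intervals. Bivalent peaks without EZH2 (orange circles) lie below bivalent peaks with EZH2 (blue squares) for H3K27me3 in every condition, and their EZH2 share is 68.0%, 20.4% and 2.91% from left to right, against 72.7%, 1.25% and 1.03% for unmarked peaks (grey triangles).

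SLC30A3, which encodes a zinc transporter of synaptic vesicles, was the gene start among the 2 regions with no H3K4me3 peak elsewhere. Its peak in sgC DMSO had a summit height of 11.9, and H3K27me3 covered all 434 bp of it in all 4 conditions. Kept H3K4me3 differed with the share of the peak under H3K27me3. Where H3K27me3 covered under 50% of the peak in sgC DMSO, 38 of 39 regions kept H3K4me3 in each of the 3 other conditions. Where it covered 50% or more, 50, 47 and 55 of 64 did in sgPRKCI enzalutamide, sgC enzalutamide and sgPRKCI DMSO. Whether peak width or height lay behind this was not tested.

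H3K27me3 overlapped 52 of the 103 regions in sgPRKCI enzalutamide, 50.5% (40.5 to 60.5), 65 in sgC enzalutamide, 63.1% (53.0 to 72.4), and 73 in sgPRKCI DMSO, 70.9% (61.1 to 79.4). Over all 643 bivalent peaks the shares were 68.6%, 82.6% and 78.4%, and at bivalent peaks with EZH2 they were 72.0%, 86.3% and 79.8%. The regions without EZH2 thus kept H3K27me3 less often than those with EZH2 in all 3 libraries. The intervals were apart in the 2 enzalutamide libraries. In sgC DMSO the H3K27me3 peaks of the regions without EZH2 were also narrower, with a median width of 1434 bp against 3397 bp. The shares were not matched on that width, and its part in them was not tested. Within the range of sgC DMSO H3K4me3 heights that held the middle of the 103 values (16.0 to 33.9, chosen after seeing the values), the shares were 45.1%, 54.9% and 64.7% of 51 regions, against 72.2%, 86.6% and 79.4% of 291 bivalent peaks with EZH2. When each H3K27me3 list was shortened to the same covered length, the shares of the 103 became 37.9%, 42.7% and 56.3%. Those of bivalent peaks with EZH2 are not given for the shortened lists, so the classes cannot be compared there. No depth can be had for the H3K27me3 libraries.

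H3K27me3 was called in all 3 other conditions at 39 of the 103 regions, in 2 at 26, in 1 at 21 and in none at 17. Regions without an overlapping peak often still had one nearby. Of the 51 regions without H3K27me3 in sgPRKCI enzalutamide, 20 had a peak within 1 kb and 19 had none within 5 kb. In sgC enzalutamide 22 of 38 had one within 1 kb and 11 had none within 5 kb, and in sgPRKCI DMSO these counts were 13 of 30 and 11. Around the 103 regions, H3K27me3 covered a median of 3579 bp of the 10 kb flanks in sgPRKCI enzalutamide, 4710 bp in sgC enzalutamide and 5260 bp in sgPRKCI DMSO, against 3727 bp in sgC DMSO. Narrow H3K27me3 peaks were kept less often: where the sgC DMSO peak was 1 kb wide or less, 14, 21 and 25 of 43 regions had H3K27me3 in sgPRKCI enzalutamide, sgC enzalutamide and sgPRKCI DMSO, and where it was wider, 38, 44 and 48 of 60 did.

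Several gene starts had an overlapping H3K27me3 peak in sgC DMSO alone. The strongest H3K4me3 peak among them was C8orf33, 2984 bp wide with H3K4me3 heights of 193 in sgPRKCI enzalutamide, 185 in sgC enzalutamide and 146 in sgPRKCI DMSO, against 162 in sgC DMSO, and with only 168 bp under H3K27me3. PRR16, a regulator of cell size, had heights of 43.1, 30.1 and 34.5 in the same 3 conditions, against 23.8 in sgC DMSO, and 194 of 1360 bp under H3K27me3. Both peaks were thus mostly outside the H3K27me3 peak that made them bivalent.

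NKX2-8, chr14:36582176-36582681, was covered over 464 of 506 bp in sgC DMSO and over 0 bp in the 3 other conditions. That sgC DMSO H3K27me3 peak was 481 bp wide, with a −log10 q of 1.46 in a list that ended at 1.00. H3K27me3 covered 8573, 14896 and 10100 bp of the 10 kb flanks in sgPRKCI enzalutamide, sgC enzalutamide and sgPRKCI DMSO, against 8917 bp in sgC DMSO. In these 3 other conditions the nearest H3K27me3 peak lay 2312, 853 and 464 bp from NKX2-8. Its H3K4me3 height was 48.2 in sgPRKCI enzalutamide, 32.7 in sgC enzalutamide and 42.7 in sgPRKCI DMSO, against 21.4 in sgC DMSO, so all 3 other libraries were higher. After centring on the median of all shared H3K4me3 sites, the log2 differences were 0.85, 0.39 and 0.95. EZH2 lay 424 bp from it in sgC DMSO and overlapped it only in sgC enzalutamide, with a height of 14.3.

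HPCAL4, a neuronal calcium sensor, and TMEM61 were likewise at 0 bp of H3K27me3 elsewhere, against 169 of 349 bp and all 245 bp in sgC DMSO. These 2 sgC DMSO H3K27me3 peaks were near the end of the list at 1.00. Their −log10 q values were 1.05, the lowest at the 103 regions, and 1.55. HPCAL4 had H3K4me3 heights of 24.4, 19.9 and 16.4 in sgPRKCI enzalutamide, sgC enzalutamide and sgPRKCI DMSO, against 24.9 in sgC DMSO. TMEM61 had centred log2 differences from sgC DMSO of -0.05, -0.21 and 0.00 in these conditions. HPCAL4 was thus lowest in sgPRKCI DMSO, and TMEM61 varied little. GBF1, which encodes an exchange factor for ARF GTPases at the Golgi, had 50 of 683 bp under H3K27me3 in sgC DMSO. Its H3K4me3 heights were 13.7, 19.2 and 15.6 in the 3 other conditions, against 27.3 in sgC DMSO. GBF1 was lowest in sgPRKCI enzalutamide, with a centred log2 difference of -1.33. NPR3, the clearance receptor of natriuretic peptides and named here after its values were seen, had heights of 28.7, 16.7 and 20.5, against 23.8.

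Among gene starts covered over 50% or more in sgC DMSO, the strongest H3K4me3 peaks included NKX2-8, given above, and the following genes. IQUB, which encodes a protein of cilia and sperm tails, had H3K4me3 heights of 83.4 in sgPRKCI enzalutamide, 78.2 in sgC enzalutamide and 77.2 in sgPRKCI DMSO, against 65.3 in sgC DMSO. H3K27me3 covered its 562 bp whole in the 3 other conditions and 508 bp in sgC DMSO. SUSD5 had heights of 59.7, 50.02 and 47.7, against 35.6, and all of its 1141 bp were under H3K27me3 in all 4 conditions. Both were bivalent throughout.

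TMEM108 had heights of 39.5, 43.0 and 33.7, against 35.6, and was covered whole in all 4 conditions. CFAP65, a protein of sperm flagella, had heights of 26.6, 23.1 and 29.6, against 35.6, and lacked H3K27me3 in sgPRKCI enzalutamide alone. GPAT3, an enzyme of triglyceride synthesis, had heights of 28.0, 23.7 and 28.8, against 26.1, and kept H3K27me3 in sgC enzalutamide alone. EFNB3, a ligand of Eph receptors, had 20.8, 35.9 and 23.8, against 34.4, and kept H3K27me3 in every condition. GRID2IP, which binds a glutamate receptor of Purkinje cells, had 32.3, 23.1 and 28.8, against 22.6, and kept H3K27me3 in every condition.

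No EZH2 peak overlapped the 103 regions in sgC DMSO by choice, so calls elsewhere could only add to it. An EZH2 peak overlapped 70 in sgPRKCI enzalutamide, 68.0% (58.0 to 76.8), 21 in sgC enzalutamide, 20.4% (13.1 to 29.5), and 3 in sgPRKCI DMSO, 2.91% (0.605 to 8.28). Over all 14230 H3K4me3 peaks without EZH2 in sgC DMSO the shares were 72.7%, 1.38% and 1.04%. The share in sgPRKCI enzalutamide was thus near that of all H3K4me3 peaks without EZH2 in sgC DMSO. The share in sgC enzalutamide was above that of the same peaks, with the interval apart. These shares count any overlap of at least 1 bp. The EZH2 summit itself lay inside the region at 61 of the 70 in sgPRKCI enzalutamide, 12 of the 21 in sgC enzalutamide and all 3 in sgPRKCI DMSO. Where it lay outside, the median distance was 62 bp in sgPRKCI enzalutamide and 98 bp in sgC enzalutamide. At bivalent peaks with EZH2, EZH2 was called again at 94.1%, 89.8% and 67.6%. With equal numbers of EZH2 peaks taken from each list by −log10 q, 175 regions met the rule, and 2.29%, 21.1% and 13.1% of them had EZH2 in sgPRKCI enzalutamide, sgC enzalutamide and sgPRKCI DMSO. The share in sgC enzalutamide was thus nearly the same in both counts, and that in sgPRKCI enzalutamide was far lower with equal numbers. Equal numbers changed the regions as well as the lists read in the other conditions, and what part depth or list length had in these shares was not tested. Shares over all H3K4me3 peaks without EZH2 are not given for the shortened lists. Whether these shares are particular to the regions therefore cannot be read from them.

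Unmarked peaks are taller, so the shares were also set side by side among peaks with sgC DMSO heights from 16.0 to 33.9. EZH2 was called in sgPRKCI enzalutamide at 70.6% (56.2 to 82.5) of 51 of the regions, against 92.8% (89.2 to 95.5) of 291 bivalent peaks with EZH2 and 30.8% (29.3 to 32.4) of 3471 unmarked peaks. In sgC enzalutamide the shares were 19.6%, 89.3% and 1.61%, and in sgPRKCI DMSO 5.88%, 67.0% and 0.634%. At like height the regions therefore stood between both other classes in all 3 other conditions, with intervals apart from both. In sgPRKCI DMSO the share rests on only 3 of the 51 regions (1.23 to 16.2%). Bivalent peaks with EZH2 were chosen for an EZH2 call in sgC DMSO and the regions for none. The difference between these classes is therefore not separate from the choice.

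In sgC enzalutamide EZH2 calls went with kept H3K27me3. EZH2 was called at 18 of 65 regions with H3K27me3 there, 27.7% (17.3 to 40.2), against 3 of 38 without, 7.89% (1.66 to 21.4). In sgPRKCI enzalutamide it was called at 37 of 52 with H3K27me3, 71.2%, and 33 of 51 without, 64.7%. EZH2 that lay within 1 kb in sgC DMSO also went with calls in sgC enzalutamide: 8 of those 17 regions were called, against 13 of the other 86. At coding starts the calls were 15 of 47 in sgC enzalutamide, 31.9% (19.1 to 47.1), against 6 of 56 elsewhere, 10.7% (4.03 to 21.9). In sgPRKCI enzalutamide they were 36 of 47, against 34 of 56, and in sgPRKCI DMSO 3 of 47, against 0 of 56 (0.00 to 6.38%).

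RCAN2, a regulator of the phosphatase calcineurin, was the 1 region with EZH2 in all 3 other conditions. Its peak, chr6:46491138-46491717, spans the printed promoter and was under H3K27me3 over all 580 bp in all 4 conditions. EZH2 heights were 35.3 in sgPRKCI enzalutamide, 12.5 in sgC enzalutamide and 12.4 in sgPRKCI DMSO, with −log10 q of 38.1, 13.2 and 8.54. In sgC DMSO an EZH2 peak lay 349 bp away. The other 2 calls in sgPRKCI DMSO were at NIM1K, a kinase related to AMPK, with a height of 11.5, and THSD4, an extracellular protein of fibrillin assembly, with a height of 13.3. H3K27me3 covered NIM1K whole in all 4 conditions, and THSD4 had none in sgPRKCI DMSO.

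Ranked by −log10 q among regions at coding genes, the strongest EZH2 calls in sgC enzalutamide were at the starts of ILDR2 and MAEL, which lie close together and run in opposite directions. MAEL acts in the silencing of transposons in germ cells. There the EZH2 height was 17.3 with a −log10 q of 22.4, and H3K27me3 covered all 316 bp, against 27 bp in sgC DMSO. EBF4, a member of the early B-cell factor family, had an EZH2 height of 16.7 and OSBP2, an oxysterol-binding protein, 13.1. HUNK, a serine/threonine kinase, had 13.7 and IQUB 11.9. All 5 of these peaks and RCAN2 were under H3K27me3 in sgC enzalutamide, over the whole of each. OSBP2 alone of the 6 had no EZH2 in sgPRKCI enzalutamide.

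By the same ranking, the strongest EZH2 calls in sgPRKCI enzalutamide were mostly at tall H3K4me3 peaks. C8orf33 had an EZH2 height of 101 and a −log10 q of 192, and lacked H3K27me3 there. ZSWIM5, the exception with an H3K4me3 height of 13.7, had an EZH2 height of 71.9. Its EZH2 peak was 1690 bp wide and its H3K4me3 peak 361 bp, so both heights may come from different positions. TASOR, a subunit of the HUSH silencing complex, had an EZH2 height of 52.3 and IQUB 44.4. SUSD5 had 39.2 and ZSCAN26, a zinc finger protein, 35.9. TASOR and ZSCAN26 were H3K4me3 peaks of 1395 and 940 bp with H3K4me3 heights of 84.8 and 89.8 there, against 68.9 and 70.1 in sgC DMSO, and 682 and 418 bp of them were under H3K27me3 in sgC DMSO.

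Across the 66 regions with both peaks in sgPRKCI enzalutamide, log EZH2 height and log H3K4me3 height had a Pearson correlation of 0.69. It was 0.76 over 470 bivalent peaks with EZH2 and 0.94 over 10250 unmarked peaks. Over the 20 such regions in sgC enzalutamide it was 0.55, against 0.15 over 438 bivalent peaks with EZH2 and 0.07 over 175 unmarked peaks. These are descriptions over sites of 1 pair of libraries, which share depth and base composition. Where both summits lay inside the region, the values were 0.86 over 56 regions and 0.78 over 7. EZH2 peaks of the 103 regions had a median height of 20.3 in sgPRKCI enzalutamide, 12.5 in sgC enzalutamide and 12.4 in sgPRKCI DMSO.

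**Figure D2:**
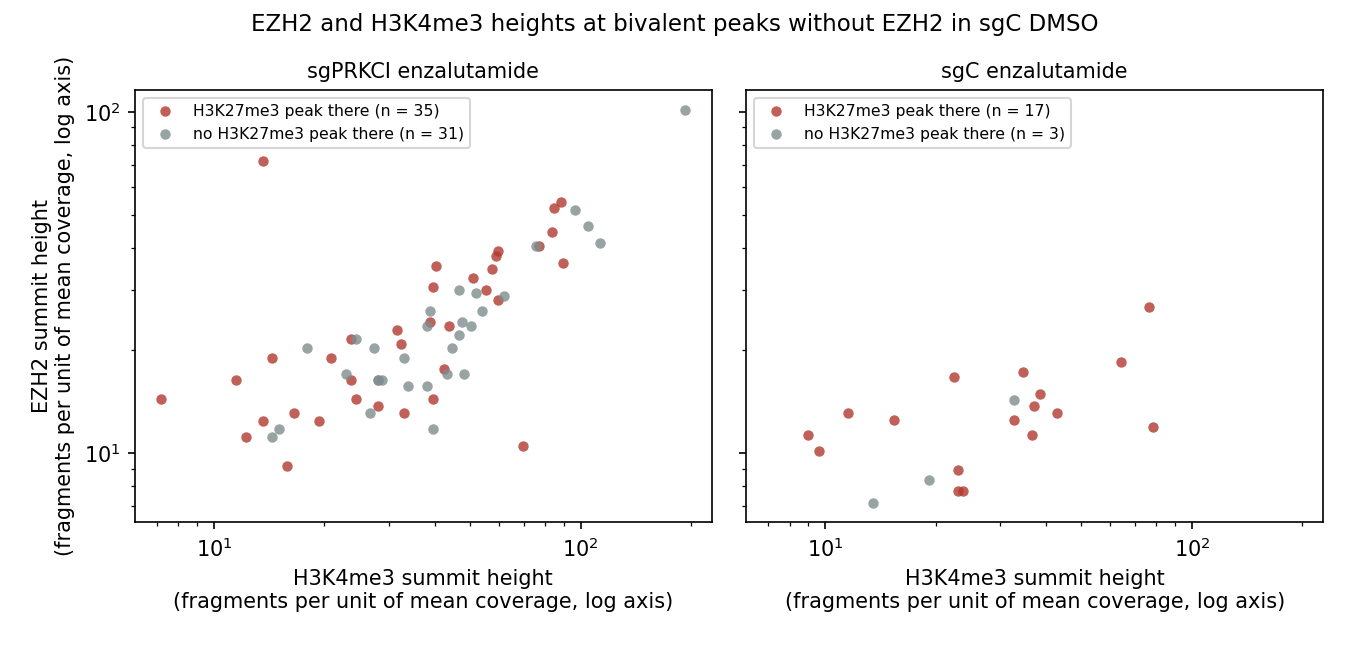
EZH2 summit height (y axis) against H3K4me3 summit height (x axis), both as fragments per unit of mean coverage on log axes, at the regions with both peaks, for sgPRKCI enzalutamide (left, 66 regions) and sgC enzalutamide (right, 20 regions). Red points had an H3K27me3 peak in the same condition and grey points did not. On the left 35 of 66 points are red, and on the right 17 of 20 points are red. ZSWIM5, on the left, has an EZH2 height of 71.9 from a 1690 bp peak that reaches beyond its 373 bp region.

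Taken region by region, the combinations of calls differed between conditions. In sgPRKCI enzalutamide 35 of the 103 had both marks and EZH2, 7 both marks without EZH2, 31 H3K4me3 with EZH2 but no H3K27me3, and 15 H3K4me3 alone. In sgC enzalutamide these counts were 17, 35, 3 and 30. In sgPRKCI DMSO they were 2, 62, 1 and 28. The remaining regions, 15, 18 and 10, had no H3K4me3 peak.

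Both marks were called in all 4 conditions at 26 of the 103 regions. Of these, 17 had no EZH2 in sgC enzalutamide and sgPRKCI DMSO either, and 4 had no EZH2 in any of the 4 libraries. TESC, which encodes a calcium-binding protein, was the only gene start among the 4. Its H3K4me3 heights were 31.6 in sgPRKCI enzalutamide, 14.8 in sgC enzalutamide and 20.5 in sgPRKCI DMSO, against 16.6 in sgC DMSO, and all 514 bp were under H3K27me3 throughout. The other 3 lay between positions 21255483 and 21259486 of chromosome 15, within the stretch near the centromere, so they are neighbours and not separate examples. TESC is named here because the count is small.

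**Figure D3:**
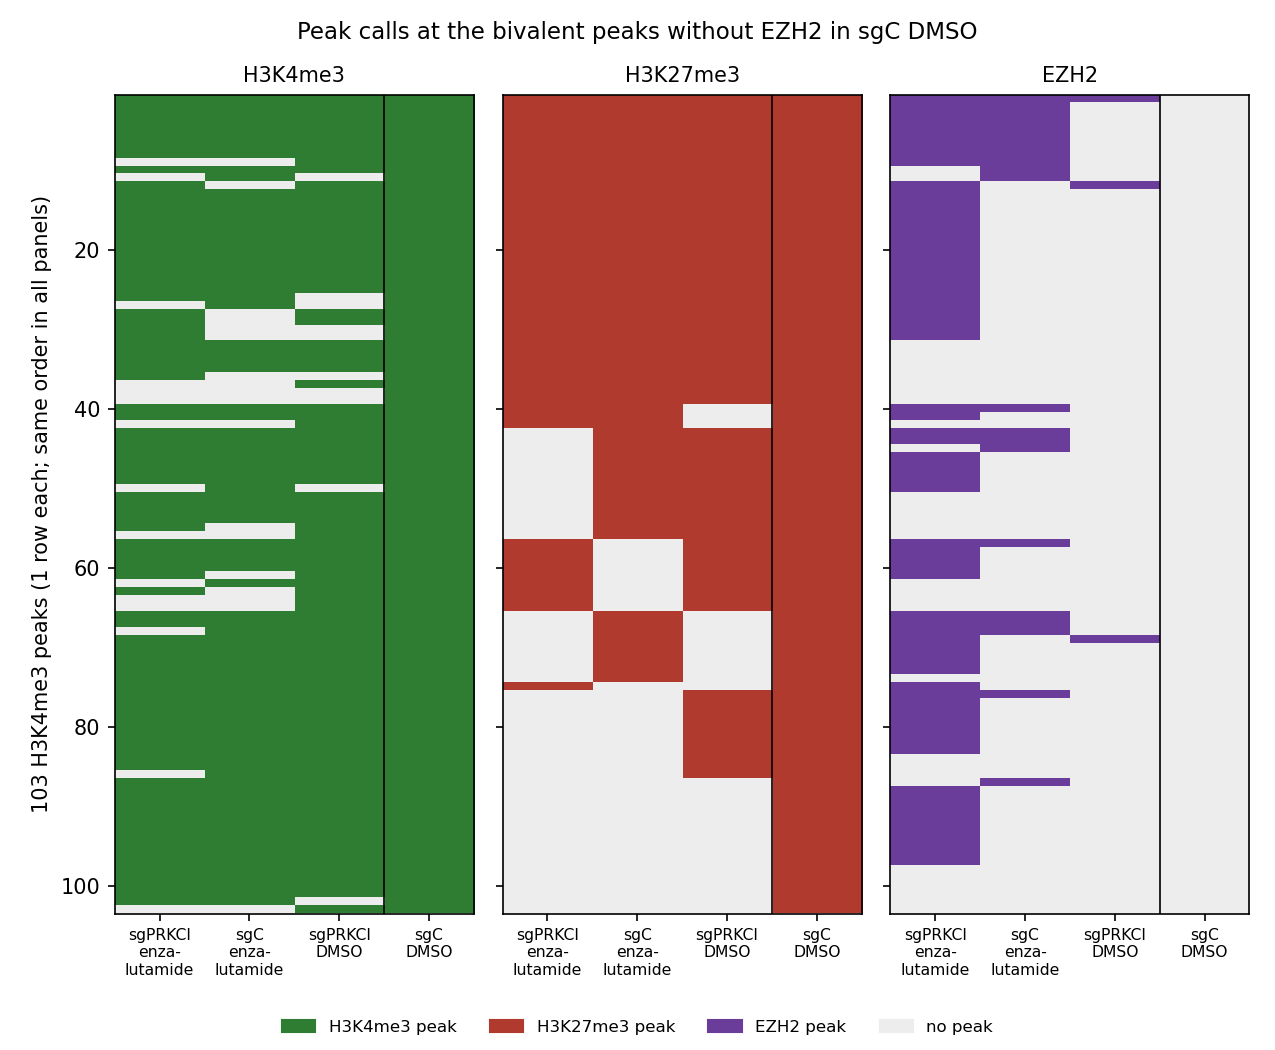
Peak calls for H3K4me3 (left, green), H3K27me3 (middle, red) and EZH2 (right, purple) at each of the 103 regions, 1 row per region in the same order in every panel, with the 4 conditions as columns. Grey means no overlapping peak, and sgC DMSO, right of the black line, is fixed by the choice of regions. The upper 39 rows kept H3K27me3 in all 3 other conditions and the lowest 17 rows in none, while EZH2 in sgPRKCI enzalutamide runs through both.

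At regions where H3K4me3 was called in both libraries, its height changed little on the median. After centring on all shared H3K4me3 sites, the median log2 difference from sgC DMSO was -0.02 (-0.20 to 0.16, n = 88) in sgPRKCI enzalutamide, -0.17 (-0.32 to -0.01, n = 85) in sgC enzalutamide and 0.07 (-0.03 to 0.20, n = 93) in sgPRKCI DMSO. The ranges are exact order-statistic intervals of the median over regions. Centring removed shifts of 0.33, 0.22 and 0.05, and without it the medians were 0.30, 0.05 and 0.12, so the direction in both enzalutamide libraries depends on it. Bivalent peaks with EZH2 gave centred medians of -0.05, -0.24 and 0.12. Among peaks with sgC DMSO heights from 16.0 to 33.9, the regions gave -0.05, -0.26 and 0.08, against -0.33, -0.31 and -0.09 for unmarked peaks.

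A height at least 2-fold higher than in sgC DMSO was found at 8 (9.09%), 7 (8.24%) and 6 (6.45%) of the shared regions. These were in sgPRKCI enzalutamide, sgC enzalutamide and sgPRKCI DMSO, against 2.31%, 1.97% and 2.26% of all shared sites. A height at least 2-fold lower was found at 6, 4 and 0, against 3.21%, 2.23% and 0.512%. In the sgC DMSO height range used above, the higher shares were 4.44%, 6.82% and 2.08% of the regions. Unmarked peaks in that range gave 7.13%, 5.72% and 6.32%. The shares of the regions rest on 2 of 45, 3 of 44 and 1 of 48, so no difference from unmarked peaks is read from them. The lower shares in that range were 8.89%, 6.82% and 0%, against 10.3%, 7.68% and 1.62% of unmarked peaks. In 12 regions of each condition the overlapping H3K4me3 peak had its summit outside the sgC DMSO peak, a median of 499.5, 538.5 and 534 bp away. With those left out, 2, 0 and 1 regions were at least 2-fold higher and 5, 4 and 0 at least 2-fold lower. Those left out include the higher heights at ZSWIM5, HUNK, PGBD5, ILDR2 with MAEL and inside ROBO1, some of which are named here after their values were seen.

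With the summit inside the region, HOXB6 and EBF4 were higher. HOXB6, a homeobox factor named here after its values were seen, had H3K4me3 heights of 42.4 in sgPRKCI enzalutamide, 22.4 in sgC enzalutamide and 29.6 in sgPRKCI DMSO, against 14.3 in sgC DMSO. H3K27me3 covered its 439 bp whole except in sgC enzalutamide, where none was called. EBF4 had heights of 39.5, 22.4 and 21.4, against 14.3. Both were highest in sgPRKCI enzalutamide, with centred log2 differences of 1.25 and 1.15. Lower heights included NIM1K and EFNB3 in sgPRKCI enzalutamide, both at -1.05, and a peak inside DHH, a hedgehog ligand gene named here after its values were seen, in sgC enzalutamide at -1.39.

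**Figure D4:**
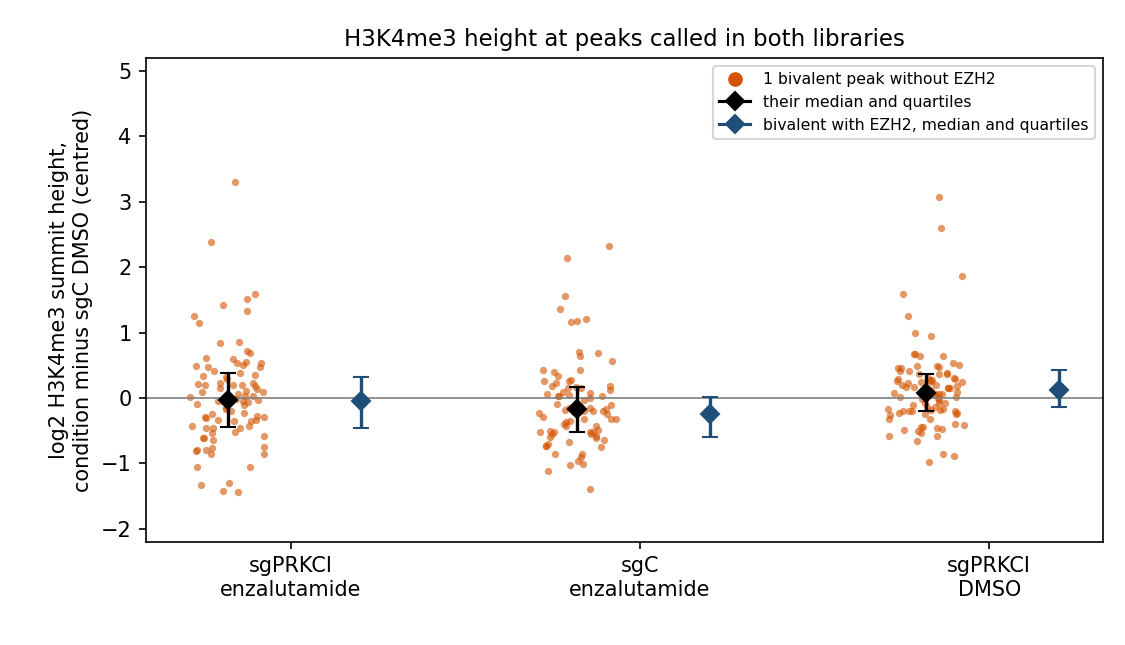
Log2 difference of H3K4me3 summit height, each other condition (x axis) minus sgC DMSO, centred on the median of all shared H3K4me3 sites (y axis). Orange points are single regions, black diamonds with bars their medians and quartiles, and blue diamonds with bars those of bivalent peaks with EZH2. Medians of the regions are -0.02, -0.17 and 0.07 from left to right, and most points above 1 have a summit outside the sgC DMSO peak.

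The listed pathway and channel genes differed in what they kept. BMP7 had H3K4me3 heights of 38.8, 36.6 and 28.8 in sgPRKCI enzalutamide, sgC enzalutamide and sgPRKCI DMSO, against 36.8 in sgC DMSO. H3K27me3 covered 1315 bp of it in sgC enzalutamide and 1302 bp in sgPRKCI DMSO, none in sgPRKCI enzalutamide and 169 bp in sgC DMSO. BMP7 thus had more H3K27me3 in sgC enzalutamide and sgPRKCI DMSO than in sgC DMSO. KCNJ12 had H3K4me3 heights of 28.7, 14.8 and 20.5, against 14.3, and no H3K27me3 elsewhere. ABCC8, a subunit of an ATP-sensitive potassium channel and one of the 3 starts with least H3K27me3, was covered over 103, 560 and 560 bp in the 3 other conditions, against 55 bp in sgC DMSO.

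Because the sgC DMSO rule allows change in 1 direction only, the same rule was applied in each condition. It found 98 regions in sgPRKCI enzalutamide, 200 in sgC enzalutamide and 411 in sgPRKCI DMSO, against 103 in sgC DMSO. These were 11.5%, 21.8% and 42.7% of the bivalent peaks of each condition, against 16.0%. Read back in sgC DMSO, EZH2 overlapped 49 of the 98, 54 of the 200 and 202 of the 411. Between sgC DMSO and each other condition, regions therefore both entered and left the class. The 103 sgC DMSO regions overlapped the class of sgPRKCI enzalutamide at 6 (5.83% of them, and 6.12% of that class), that of sgC enzalutamide at 38 (36.9% and 18.5%) and that of sgPRKCI DMSO at 60 (58.3% and 14.4%). The sgPRKCI DMSO class was the largest, in the EZH2 library with the fewest peaks and the lowest coverage, and the part of depth in its size was not tested.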

How the data were processed

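CUT&RUN peak lists of 12 libraries (antibodies against EZH2, H3K4me3 and H3K27me3 in 4 conditions) were used, and 4 IgG libraries were not analysed here. Samples were grouped by their guide, treatment and antibody labels. The submitters' processing notes name FastQC, Trimmomatic, Bowtie2, SAMtools, MACS2 and GRCh38; for versions and parameters, nothing was given in the sources used here. Spike-in nucleosomes of the protocol were not used here.

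Per library, the authors deposited broad MACS2 peaks for H3K27me3 and narrow ones for H3K4me3 and EZH2. Each deposited peak has a fold enrichment ratio over the local background, a −log10 p-value and −log10 q-value, and a score derived from the q-value. Narrow peaks, as deposited, also carry the summit offset. Narrow lists ended at a −log10 q of 4.00 to 4.05 and broad lists at 1.00 to 1.02, which sets what counts as a missing peak.

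From fold enrichment and −log10 p, the whole number of fragments at each narrow summit was recovered for 100.0% of peaks, to within 0.002 in −log10 p. The EZH2 library of sgPRKCI enzalutamide needed a pileup scale of 0.89. The lowest local background gave the mean coverage. Broad peaks give no depth. The recovery and the overlap code were tested on simulated data.

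Overlap meant at least 1 bp. A site in another condition took the overlapping peak with the highest −log10 q. Coding starts came from RefSeq (GRCh38.p14) for 15812 genes, and 4162 further genes were placed by both annotated ends. Matched in this way were 19974 coding genes, and 2 of the 14 gene lists' entries (1 interferon, 1 ribosomal) and 1 Polycomb entry were not matched. Python 3.11.15, NumPy 2.4.6, SciPy 1.17.1, pandas 2.3.3 and matplotlib 3.10.9 were used. With 1 library per condition no test was run; p-values are not given.

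Named genes were, among regions at coding genes, the 10 with the highest H3K4me3 −log10 q under H3K27me3 over 50% or more, the 6 per condition with the highest EZH2 −log10 q, the 6 strongest without H3K27me3 and the 6 strongest without H3K4me3 elsewhere, up to 8 with EZH2 in all 3 other conditions, up to 4 per gene list, and 3 at each edge of the rule. Others were named after their values were seen. Some named genes are not reported here. The regions, lists and comparisons were chosen with earlier results of these data known. Alternatives covered the overlap required, a stricter q, list lengths, distance to EZH2, merging and centring.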

Additional observations from a re-analysis of the deposited data

Results flagged for a closer look

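Outside chromosomes 1 to 22 and X, on chromosome Y and on unplaced or alternate contigs, 1240 H3K4me3 peaks of sgC DMSO were listed. Of these, 19 overlapped H3K27me3, and 9 of the 19 had no EZH2 peak, 47.4% (24.4 to 71.1, exact 95% binomial interval). They are listed here because the comparisons did not use them. On chromosomes 1 to 22 and X the share was 16.0%.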

How the results depend on the processing

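Of 62 alternative values of the main results, 41 stayed within the interval of the value reported or, for a count, within 1.5 times of it, and 21 moved. Requiring H3K27me3 over at least 50% of the peak left 64 regions. Their H3K4me3 share in sgC enzalutamide became 73.4%, their H3K27me3 shares in sgPRKCI enzalutamide, sgC enzalutamide and sgPRKCI DMSO 60.9%, 73.4% and 81.2%, their EZH2 share in sgPRKCI enzalutamide 57.8%, and their median log2 H3K4me3 difference in sgPRKCI DMSO 0.23. A stricter q on every list (−log10 q of 10 for narrow and 2 for broad peaks) made the class 26.3% of bivalent peaks, with an H3K4me3 share of 91.2% in sgC enzalutamide and EZH2 shares of 78.0% in sgPRKCI enzalutamide and 8.79% in sgPRKCI DMSO. With equal numbers of EZH2 peaks, 175 regions met the rule, 27.2% of bivalent peaks, and the EZH2 shares were 2.29% in sgPRKCI enzalutamide and 13.1% in sgPRKCI DMSO. Shortening the lists removes the lowest −log10 q peaks by construction. Equal H3K27me3 length gave H3K27me3 shares of 37.9%, 42.7% and 56.3%. Without centring, the median log2 H3K4me3 differences were 0.30 in sgPRKCI enzalutamide and 0.049 in sgC enzalutamide, both with the opposite sign to the centred value. Requiring the H3K4me3 summit under H3K27me3, chosen after seeing the data, left 66 regions. For the moves without a stated construction the cause was not tested. Leaving out regions beside 3 or more pseudogenes and using only summits inside the regions, both also chosen after seeing the data, moved no main value. Of the 28 named regions, 17 stayed in the class with 50% cover and 13 with the stricter q. When EZH2 within 1 kb was counted 21 stayed, and with the summit rule 18. With equal EZH2 numbers all 28 stayed by construction, because a shortened EZH2 list cannot add an overlap. The coverage of the H3K4me3 and EZH2 libraries, and the unknown depth of the H3K27me3 libraries, limit every statement that a peak was not called. No paired analysis was possible because each antibody and condition has 1 library. For the same reason no replicate could be left out.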

Other observations

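Away from gene starts, 19 of the 103 regions lay inside a coding gene. They included a pair inside TNNT1, a troponin of slow skeletal muscle, and single regions inside ROBO1, a receptor of axon guidance, DAB2IP, a Ras GTPase-activating protein, and ASIC3, an acid-sensing ion channel. These were named after their values were seen. The median centred H3K4me3 difference between sgPRKCI and sgC in DMSO was 0.07 on the log2 scale, over the 93 regions with H3K4me3 in both. On enzalutamide the medians against sgC DMSO, over 88 regions in sgPRKCI and 85 in sgC, differed by 0.15, so they cover different sets of regions. Both are differences of 1 library from another.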
